A study of Mus musculus with 6 samples.

Results

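Long noncoding RNAs that are well known in heart and muscle were followed here through one comparison, that of infarcted hearts with and without another long noncoding RNA. The members were the 10 genes Neat1, Malat1, Meg3, Rian, Mirg, H19, Kcnq1ot1, Miat, Gas5 and Snhg1. They were chosen by name, and the identifiers of 10 of the 52550 rows in the deposited table mapped to them. RNA was sequenced from hearts of 6 C57BL/6 mice aged 10 weeks. In all of them the left anterior descending coronary artery had been tied permanently at 8 weeks of age, 2 weeks before harvest. Of the 6 mice, 3 were wild type (WT) and 3 carried the genotype lncRNA-DRR-/- (KO). The labels do not say how that deletion was made, which annotated gene it removes, or what part of the heart was taken, and the level of the deleted RNA was not analysed here. No sham-operated or uninjured heart was analysed here, so the values describe the infarcted heart only.

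A long noncoding RNA is transcribed and often spliced like a messenger RNA but encodes no protein of known function. Neat1 and Malat1 are nuclear RNAs, the first the scaffold of the paraspeckle and the second a component of nuclear speckles, where splicing factors gather. H19, Meg3, Rian, Mirg and Kcnq1ot1 are imprinted, which means that they are read from the copy inherited from one parent only. Gas5 and Snhg1 carry small nucleolar RNAs (snoRNAs, guides for the modification of other RNAs) in their introns, and Miat was named after its association with myocardial infarction in people.

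Values are FPKM, fragments scaled to transcript length and library size, so levels of different genes can be set side by side, but only roughly. The transcript lengths used are not given, and rows that overlap a gene may share its reads. The depth estimated from the table was between about 5215120 and 9456260 fragments per library, at which 1 fragment on a transcript of 1 kb is worth between 0.106 and 0.192 FPKM. One library, KO replicate 3, stood apart. It had 25.6 FPKM of Xist, which coats the silenced X, where no other heart exceeded 0.0742 FPKM, and 0.0280 FPKM of the Y-linked Ddx3y, which ranged from 13.0 to 16.2 FPKM elsewhere. Without it 36 genes of the whole table were called, none of them among the 10 RNAs. All 6 cardiomyocyte markers, among them Myh6, Tnnt2 and Myl2, were present in all libraries, with a summed level of 7887 to 10249 FPKM in WT hearts and 6338 to 9714 FPKM in KO hearts. The labels give no sex, litter, batch or time of day. By Xist and Ddx3y, KO replicate 3 reads as a female heart and the others as male, so only the KO group mixes the sexes.

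Of the 10 RNAs, 7 reached the 0.5 FPKM taken here as measured, and did so in all 6 libraries. Malat1 had the highest mean, 30.8 ± 5.89 FPKM (SD over 6 libraries), followed by H19 at 18.1 ± 4.16, Gas5 at 10.2 ± 1.503 and Neat1 at 6.60 ± 1.31 FPKM. The ranges of these 4 RNAs did not touch each other, and that of Neat1 lay above that of Snhg1, whose mean was 1.81 ± 0.506 FPKM. Rian at 1.18 ± 0.507 and Meg3 at 0.992 ± 0.297 FPKM came next and did not differ beyond their spread, Rian being higher in 4 of 6 libraries. Snhg1 was above Rian in all 6 libraries, but their ranges overlapped. Among the 1040 rows of long noncoding types that passed the filter on low values, Malat1 ranked 24th, H19 50th, Gas5 89th and Neat1 131st by mean FPKM. The median of those rows was 1.41 FPKM, a level that Snhg1 exceeded and that Rian and Meg3 did not reach. Mirg, Kcnq1ot1 and Miat stayed under 0.5 FPKM in all 6 libraries.

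**Figure D1:**
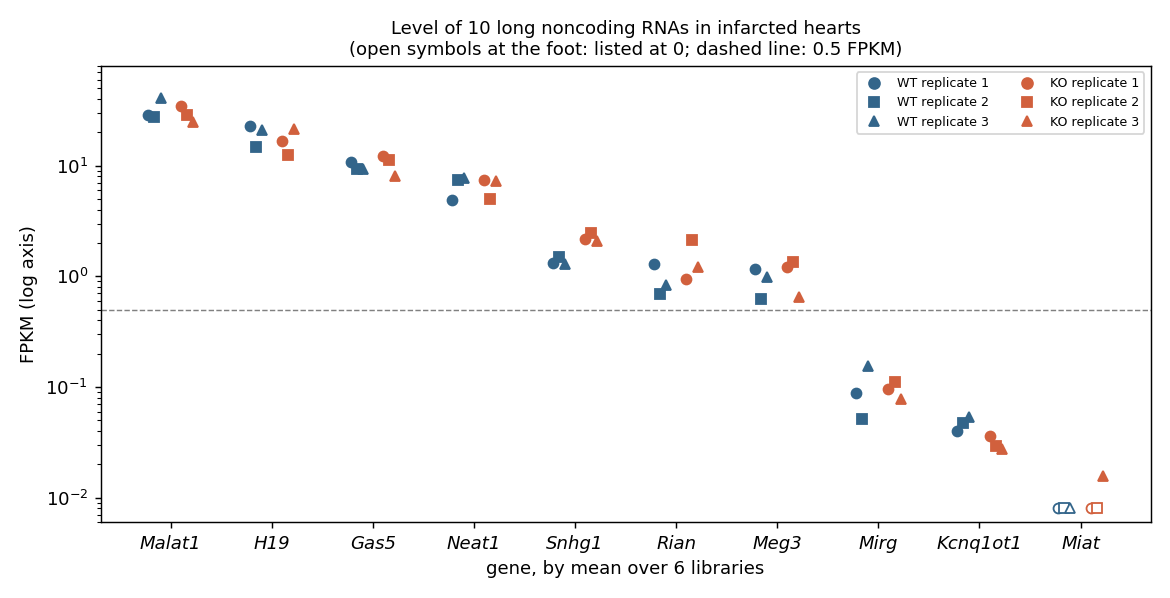
FPKM of the 10 long noncoding RNAs (log axis) in each of the 6 libraries, WT in blue and KO in orange, ordered by mean level, with the dashed line at 0.5 FPKM and values listed at 0 as open symbols at the foot. The 7 genes from Malat1 to Meg3 lie above the line in every library, and among them the WT and KO points are apart only for Snhg1.

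None of the 7 tested RNAs passed the threshold in the comparison of the genotypes. By limma, with an adjusted p under 0.05 over all 14656 tested genes, 0 of the 7 were called, where 0.375% of all tested genes were (55, and 12 to 36 without any one library). At an unadjusted limma p under 0.05 there was 1 of the 7, Snhg1, beside 8.48% of all tested genes. The 3 KO and 3 WT values did not overlap for 1 of the 7, again Snhg1, beside 12.8% of all tested genes, so that a single such gene is near the background share. The median log2 difference of the 7 was 0.084 (KO minus WT), against -0.004 over all tested genes, with 4 members higher and 3 lower in KO.

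**Figure D2:**
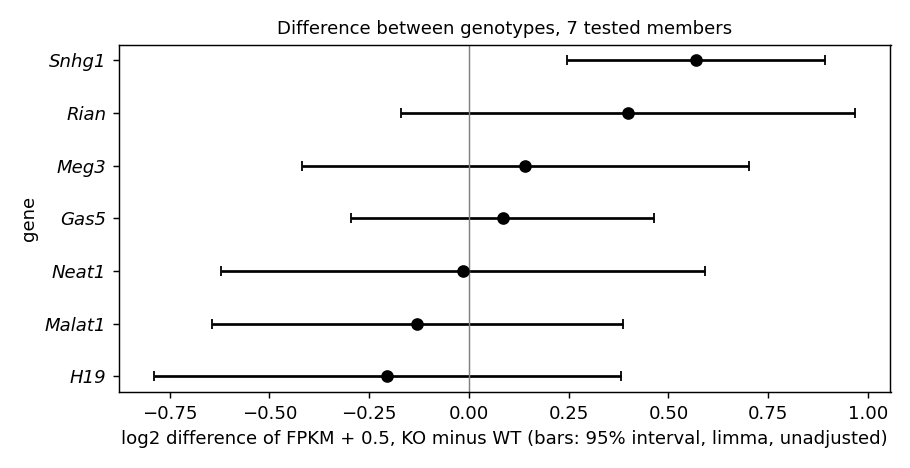
Log2 difference of FPKM + 0.5 between KO and WT hearts (n = 3 each) for the 7 tested RNAs, with unadjusted 95% intervals from limma as bars and a grey line at no difference. The interval of Snhg1 runs from 0.25 to 0.89 and lies above 0, and the intervals of the other 6 genes span 0.

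Snhg1 and Gas5 are hosts of snoRNAs and are known as genes whose transcripts can start with a stretch of C and T, the feature of the messenger RNAs of ribosomal proteins. Their start regions are shown because Snhg1 is the one of the 7 tested RNAs whose genotypes were apart. Each runs from 250 bases before to 50 bases after an annotated start (RefSeq, GRCm38.p6, plus strand). Capitals mark the longest run of C and T within the first 20 transcribed bases. The record of Snhg1 is chr19:8723237-8723536, and that of Gas5, the second of 2 starts given for the gene, is chr1:161034916-161035215.
Snhg1: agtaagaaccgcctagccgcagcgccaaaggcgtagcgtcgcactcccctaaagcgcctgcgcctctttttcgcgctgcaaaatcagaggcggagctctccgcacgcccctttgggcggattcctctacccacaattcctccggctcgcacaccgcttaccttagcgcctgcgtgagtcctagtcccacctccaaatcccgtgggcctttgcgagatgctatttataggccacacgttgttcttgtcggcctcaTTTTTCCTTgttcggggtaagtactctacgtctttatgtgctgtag
Gas5: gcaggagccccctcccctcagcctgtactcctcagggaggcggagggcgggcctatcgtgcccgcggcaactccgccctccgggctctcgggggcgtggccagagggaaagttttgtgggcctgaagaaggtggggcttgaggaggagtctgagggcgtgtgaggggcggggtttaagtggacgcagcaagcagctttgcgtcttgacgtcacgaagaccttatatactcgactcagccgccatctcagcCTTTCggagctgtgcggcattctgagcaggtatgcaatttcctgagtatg
The run is 9 bases long in Snhg1 and starts at base 5. In Gas5 it is 5 bases long and starts at the first base, while at the other Gas5 start the longest run has 3 bases, a length that 76.8% of all records reach. A run of at least 9 bases occurs in 4.20% and one of at least 5 bases in 32.8% of all 32851 start records of 300 bases. CACGTG, the E-box letters (the same on both strands), were in none of the 10 records found for 8 of the 10 RNAs and in 7.15% of all records.

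Snhg1 stood higher in every KO heart than in any WT heart. Its level was 1.33, 1.48 and 1.28 FPKM in WT replicates 1 to 3 and 2.19, 2.47 and 2.10 FPKM in KO replicates 1 to 3. The lowest KO value was above the highest WT value, and the spread within each genotype was small. The means were 1.37 ± 0.104 and 2.25 ± 0.197 FPKM (SD, n = 3 each), a ratio of 1.65. On the log2(FPKM + 0.5) scale, which understates the change of low genes, the difference was 0.57 ± 0.14 (SE; 95% interval 0.25 to 0.89). The limma adjusted p was 0.232, so Snhg1 was not called over all genes, and its unadjusted limma p was 0.0039. Across 17 other settings it stayed between 0.47 and 0.69, with a limma adjusted p from 0.177 to 0.526. Without KO replicate 3, the library with Xist, it was 0.60. The sum of 4 skeletal muscle markers (Acta1, Myh4, Mylpf and Ckm, of which heart also makes Acta1 and Ckm) separated the genotypes too, at 674.4 to 861.2 FPKM in WT hearts and 515.9 to 638.2 FPKM in KO hearts. Nearly all of that sum was Acta1 (112.8 to 358.6 FPKM) and Ckm (321.6 to 501.5 FPKM), so it mainly reflects genes that heart makes too. Mylpf stood between 0.180 and 8.62 FPKM, and the genotypes overlapped in Mylpf and in Acta1. They were apart in Ckm, at 418.4 to 501.5 FPKM in WT and 321.6 to 411.9 FPKM in KO hearts, beside 12.8% of all tested genes. Of the 3 markers that passed the filter, 0 were called by limma and 0 had an unadjusted p under 0.05 (median log2 difference -0.86). Their part in the level of Snhg1 was not tested.

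Gas5, which was first found as an RNA of growth-arrested cells, did not separate the genotypes. It stood at 10.8, 9.39 and 9.39 FPKM in WT replicates 1 to 3 and at 12.2, 11.3 and 8.08 FPKM in KO replicates 1 to 3. Both the highest and the lowest value belonged to KO hearts. The lowest was that of KO replicate 3, the library with Xist, and the other KO values were above all WT values. KO minus WT came to 0.084 ± 0.16 on the log2 scale (95% interval -0.30 to 0.46, limma adjusted p = 0.931), and it was -0.05 without KO replicate 1 and 0.24 without KO replicate 3. The ratio of Snhg1 to Gas5 within a library, which no scaling factor can change, was 0.123, 0.158 and 0.137 in WT and 0.180, 0.218 and 0.259 in KO libraries. These ratios did not overlap (exact permutation p = 0.1, two-sided, the smallest that 3 against 3 allows, and 0.6 after Benjamini-Hochberg adjustment over 6 ratios).

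The table also holds rows for snoRNAs inside the introns and exons of these genes. Of 10 snoRNA rows inside Gas5, 3 reached 0.5 FPKM in at least 3 libraries, and none of 8 inside Snhg1 did. The one with the highest level, Gm22357, an 83-base snoRNA on the strand of Gas5 (chr1:161036057-161036139, GRCm38), was singled out after its values were seen. Its sequence from GENCODE M21 is shown because its values were apart between the genotypes where those of its host gene were not. Capitals mark the letters TGATGA and CTGA, known from snoRNAs as boxes C and D.
Gm22357: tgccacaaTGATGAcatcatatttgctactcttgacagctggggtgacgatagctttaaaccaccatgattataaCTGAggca
It stood at 10.8, 11.7 and 10.0 FPKM in WT and at 14.9, 16.6 and 13.7 FPKM in KO replicates 1 to 3. All KO values were above all WT values, as those of 12.8% of all tested genes were apart in either direction. The log2 difference was 0.47 ± 0.12 (SE, n = 3 each, limma adjusted p = 0.249), which misses the threshold. With 1 fragment on 1 kb worth between 0.106 and 0.192 FPKM, values of this size on 83 bases rest on few fragments per library. A row this short shares its reads with the host transcript and with any unspliced precursor, so the assignment to one or the other is uncertain.

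Other snoRNA hosts were set beside these from a fixed list of 23 genes, of which 17 were tested. None was called by limma, 1 had an unadjusted p under 0.05, and the median log2 difference was 0.075, with 11 higher and 6 lower. Snhg3 stood at 4.54, 4.29 and 3.54 FPKM in WT and at 9.26, 4.80 and 6.81 FPKM in KO replicates 1 to 3. All KO values were above all WT values, and KO replicate 1 was well above the other KO hearts (log2 difference 0.67 ± 0.25, limma adjusted p = 0.499; 0.42 without KO replicate 1). Snhg5 differed by -0.37 ± 0.21 and Zfas1 by 0.33 ± 0.19 (limma adjusted p = 0.707 and 0.730), with overlapping genotypes. Snhg5 was at -0.22 without WT replicate 1 and Zfas1 at 0.19 without WT replicate 2. Spliced transcripts of such hosts are known targets of nonsense-mediated decay. Of 10 tested factors of that pathway 0 were called by limma and 0 had an unadjusted p under 0.05, with a median log2 difference of -0.016. The genotypes were apart for 1 of the 10, Upf3a, which was higher in KO, beside 12.8% of all tested genes. The 3 of smallest p were Upf3a at 0.32 ± 0.16, Upf1, the helicase of the pathway, at -0.16 ± 0.11 and Smg1, the kinase that acts on it, at -0.19 ± 0.13 (log2 differences with SE, limma adjusted p = 0.675, 0.773 and 0.786). Upf3a was at 0.18 without WT replicate 2 and Smg1 at -0.098 without KO replicate 1.

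**Figure D3:**
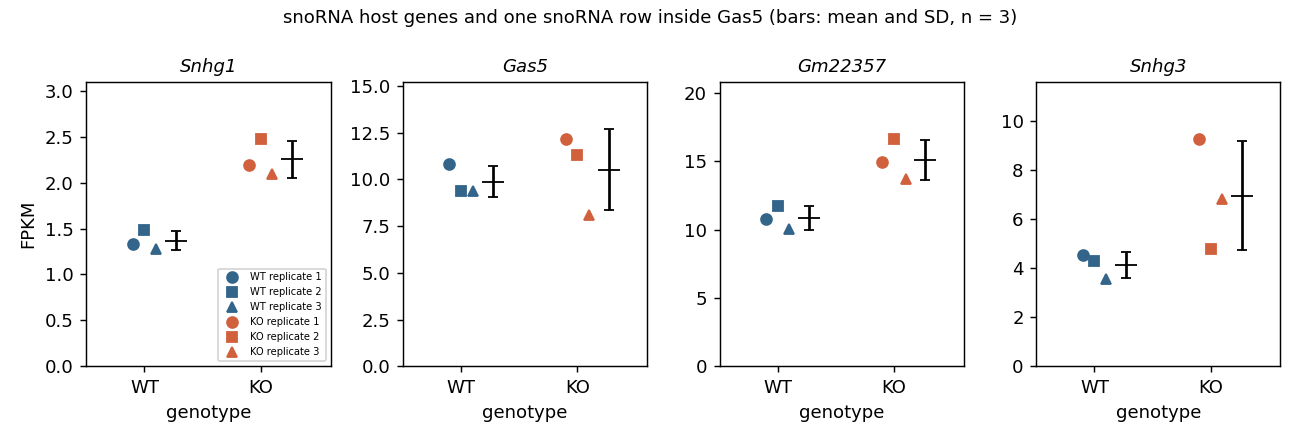
FPKM (linear axes from 0) of Snhg1, Gas5, the snoRNA row Gm22357 inside Gas5 and Snhg3 in each library, with black bars for the mean and SD of 3 hearts. WT and KO points are apart for Snhg1, Gm22357 and Snhg3 and overlap for Gas5.

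Neat1 and Malat1 lie side by side on the minus strand of chromosome 19 (5824708 to 5845478 and 5795690 to 5802672, GRCm38) and did not separate the genotypes. Neat1 stood at 4.88, 7.44 and 7.73 FPKM in WT and at 7.34, 4.96 and 7.25 FPKM in KO replicates 1 to 3. WT replicate 1 and KO replicate 2 were low, and the other 4 hearts lay close together. KO minus WT was -0.016 ± 0.26 on the log2 scale (95% interval -0.62 to 0.59, limma adjusted p = 0.994), and its sign turned when WT replicate 2 (0.08), WT replicate 3 (0.13) or KO replicate 2 (0.20) was left out. The interval leaves room for a change of FPKM + 0.5 from 0.650-fold to 1.51-fold.

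Malat1 stood at 28.8, 27.6 and 41.1 FPKM in WT and at 34.3, 28.5 and 24.8 FPKM in KO replicates 1 to 3. WT replicate 3 was the highest and KO replicate 3 the lowest, and the other 4 hearts of both genotypes were mixed. On the log2 scale KO minus WT was -0.13 ± 0.22 (95% interval -0.64 to 0.38, limma adjusted p = 0.922), and became 0.09 once WT replicate 3 was left out. The ratio of Neat1 to Malat1 was 0.209 ± 0.0534 in WT and 0.227 ± 0.0601 in KO libraries (n = 3 each, exact permutation p = 0.6).

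Short rows inside both genes carry fragments as well, and reads may have been divided between them and the long RNA. Gm27505, a 110-base row inside Neat1, stood at 27.1 and 30.1 FPKM in WT replicates 1 and 3 and between 0.327 and 0.436 FPKM in the other 4 libraries. Gm28006, a 122-base row near it, was at 0.00647 and 0.0338 FPKM in the same 2 libraries and between 0.349 and 0.443 FPKM in the others. At these lengths the values of Gm28006, and those of Gm27505 in its 4 low libraries, are worth less than 1 fragment. Gm37376, a row on the strand opposite to Malat1 that overlaps it, stood between 43.5 and 70.9 FPKM and was, like Malat1, highest in WT replicate 3. Whether strand was used in counting is not given in the sources used here, so reads of Malat1 and of this row cannot be told apart.

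None of the genes for proteins that work with these nuclear RNAs passed the threshold. Of 16 paraspeckle protein genes tested, 0 were called by limma and 1 had an unadjusted p under 0.05, with a median log2 difference of 0.009. The genotypes were apart for 4 that were higher and 1 that was lower in KO, beside 12.8% of all tested genes. Hnrnph3, an RNA-binding protein gene, stood at 12.8 ± 0.691 FPKM in WT hearts and 10.0 ± 1.23 FPKM in KO hearts (log2 difference -0.33 ± 0.12, n = 3 each, limma adjusted p = 0.481). Dazap1 differed by 0.20 ± 0.11 (limma adjusted p = 0.703), and its genotypes, like those of Hnrnph3, were apart. Of 18 nuclear speckle and splicing factor genes, 0 were called by limma and 0 had an unadjusted p under 0.05 (median 0.012). In this list the genotypes did not overlap for 1 that was higher and 1 that was lower in KO, beside 12.8% of all tested genes. Srsf2, a splicing factor gene, differed by 0.25 ± 0.14, Son, a speckle scaffold gene, by -0.39 ± 0.23 and Tra2b by 0.20 ± 0.13 (limma adjusted p = 0.715, 0.731 and 0.766). Son stood at 7.87 FPKM in KO replicate 1 and between 14.4 and 16.6 FPKM in the other 5 libraries, and without that heart its difference was -0.11. Without KO replicate 3 Srsf2 was at 0.15 and Tra2b at 0.098.

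Meg3, Rian and Mirg are read in one direction along chromosome 12 and are expressed from the maternal copy of the Dlk1-Dio3 domain, together with the microRNAs that lie inside them. In GRCm38 Meg3 spans 109541001 to 109571726, Rian 109603940 to 109661716 and Mirg 109729764 to 109749460, all on the plus strand. RefSeq places 26 mature microRNAs inside Mirg, 6 inside Rian, 3 inside Meg3 and 2, both of miR-675, inside H19. A few are printed as what these host RNAs contain, from RefSeq (GRCm38.p6), with the seed, bases 2 to 8, in capitals.
mmu-miR-770-5p (in Meg3): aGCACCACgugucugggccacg
mmu-miR-370-3p (in Rian): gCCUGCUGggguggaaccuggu
mmu-miR-410-3p (in Mirg): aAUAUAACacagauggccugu
mmu-miR-154-3p (in Mirg): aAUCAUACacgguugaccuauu
mmu-miR-496a-5p (in Mirg): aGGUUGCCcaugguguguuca
mmu-miR-453 (in Mirg): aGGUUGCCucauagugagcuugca
mmu-miR-675-5p (in H19): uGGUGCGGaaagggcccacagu
mmu-miR-675-3p (in H19): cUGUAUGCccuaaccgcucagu
Among all 37, miR-496a-5p and miR-453 were the only 2 with the same seed. Mature microRNAs are too short for this kind of library, and their levels were not measured. Of the 22 microRNA rows inside the 10 genes, none reached 0.5 FPKM in 3 libraries.

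Rian, a host of many snoRNAs, had the widest spread among the 7 tested RNAs relative to its mean. It stood at 1.29, 0.694 and 0.838 FPKM in WT and at 0.940, 2.11 and 1.22 FPKM in KO replicates 1 to 3. KO replicate 2 was the highest, but WT replicate 1 was above both other KO hearts. The log2 difference was 0.40 ± 0.24 (95% interval -0.17 to 0.97, limma adjusted p = 0.740), and it was 0.19 once KO replicate 2 was left out.

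Meg3 stood at 1.15, 0.624 and 0.977 FPKM in WT and at 1.21, 1.34 and 0.653 FPKM in KO replicates 1 to 3. KO replicates 1 and 2 were the highest, while KO replicate 3 and WT replicate 2 were the lowest. The log2 difference was 0.14 ± 0.24 (95% interval -0.42 to 0.70, limma adjusted p = 0.922), and became -0.01 once WT replicate 2 was left out. Mirg was far lower, at 0.0875, 0.0515 and 0.154 FPKM in WT hearts and 0.0967, 0.110 and 0.0777 FPKM in KO replicates 1 to 3, and was not tested. Its ratio to Meg3 was 0.105 ± 0.0452 in WT and 0.0938 ± 0.0218 in KO libraries, and that of Rian to Meg3 was 1.03 ± 0.148 and 1.41 ± 0.563 (n = 3 each, exact permutation p = 0.9 and 0.5). The genotypes overlapped in both ratios. With 1 fragment on 1 kb worth 0.106 to 0.192 FPKM, values of Mirg on at most 3822 bases rest on few fragments per library.

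Fibroblast markers varied between the same hearts. Their summed FPKM (Col1a1, Col1a2, Dcn, Pdgfra, Postn and Lum) was 1539, 923.4 and 822.8 in WT and 1320.4, 1810.5 and 976.0 in KO replicates 1 to 3. KO replicate 2 and WT replicate 1 were the highest in this sum and also in Rian, and the 3 libraries highest in the sum were the 3 highest in Meg3. The same 3 libraries were highest in the sums of smooth muscle and pericyte markers and of epicardial markers, so this order does not belong to fibroblast markers alone. In whole tissue, fewer cells of a type and less RNA per cell cannot be told apart, and the part of cell composition in these levels was not tested. Of the 6 fibroblast markers, 0 were called by limma and 0 had an unadjusted p under 0.05, with a median log2 difference of 0.31. The other genes of the domain were close to the floor. Of the 6 listed, Dlk1, Rtl1, Dio3, Begain, Dio3os and Wdr25, only Wdr25 passed the filter on low values (log2 difference 0.18 ± 0.25, limma adjusted p = 0.891; -0.001 without KO replicate 3 and 0.40 without KO replicate 2).

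**Figure D4:**
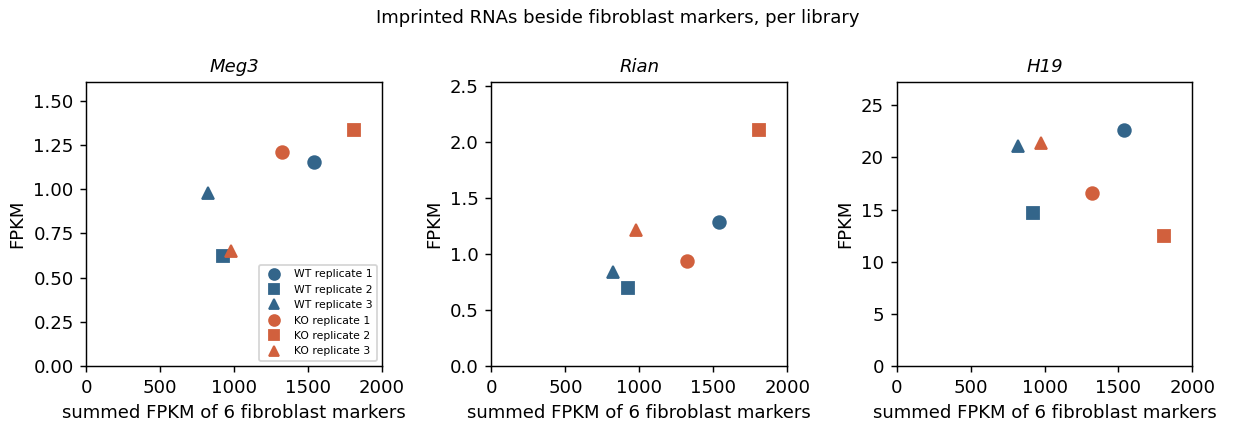
FPKM of Meg3, Rian and H19 (linear axes from 0) against the summed FPKM of 6 fibroblast markers, 1 point per library. KO replicate 2, at 1810.5 on the x axis, is the highest point for Meg3 and Rian and the lowest for H19.

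H19, the maternally expressed RNA next to the growth factor gene Igf2 on chromosome 7 (142575529 to 142578143, minus strand, GRCm38), was the second most abundant of the 10. It stood at 22.6, 14.7 and 21.1 FPKM in WT and at 16.6, 12.4 and 21.3 FPKM in KO replicates 1 to 3. KO replicate 2 was the lowest and WT replicate 1 the highest, with the genotypes mixed between them. The log2 difference was -0.20 ± 0.25 (95% interval -0.79 to 0.38, limma adjusted p = 0.880), and 0.03 without KO replicate 2. KO replicate 2 also had the lowest summed level of cardiomyocyte markers, 6338 FPKM, against 7887 to 10249 FPKM in the other 5 libraries. WT replicate 1, the highest in H19, was the next lowest in that sum, at 7887 FPKM. The part of cell composition in the level of H19 was not tested.

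Igf2 stood at 7.10, 6.72 and 16.1 FPKM in WT and at 16.2, 6.32 and 10.1 FPKM in KO replicates 1 to 3, so that WT replicate 3 and KO replicate 1 were high. The ratio of H19 to Igf2 was 2.23 ± 0.941 in WT and 1.70 ± 0.589 in KO libraries (n = 3 each, exact permutation p = 0.4). Of 8 tested neighbours and partners of the pair 0 were called by limma and 0 had an unadjusted p under 0.05 (median log2 difference -0.070). Igf2r, the receptor that clears IGF2, stood at 21.6 ± 1.33 and 17.8 ± 3.07 FPKM (log2 difference -0.27 ± 0.12, n = 3 each, limma adjusted p = 0.595). Igf1r, the signalling receptor, differed by 0.090 ± 0.12 and Igf2bp2, which encodes an RNA-binding protein, by -0.13 ± 0.18 (limma adjusted p = 0.894 and 0.902). Igf2bp2 was at -0.081 without KO replicate 1, -0.23 without WT replicate 1 and -0.027 without WT replicate 2. Gm27786, a 70-base row that overlaps H19 on the other strand, stood between 56.8 and 141.6 FPKM, above H19 in all 6 libraries. Its reads cannot be told from those of H19 without strand.

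Kcnq1ot1 is an unspliced antisense RNA inside Kcnq1, the gene of a cardiac potassium channel, and silences neighbouring genes on the paternal copy. GENCODE gives it a single exon of 93092 bases on the minus strand of chromosome 7 (143203458 to 143296549, GRCm38). It was listed at 0.0403, 0.0476 and 0.0538 FPKM in WT and at 0.0361, 0.0290 and 0.0274 FPKM in KO replicates 1 to 3. All KO values were below all WT values, at a level under the filter, so no test was made. The genotypes were apart, in either direction, in 12.8% of all tested genes, Kcnq1 among them. At that length these values amount to about 26.1 to 35.5 fragments per WT and 17.6 to 23.8 per KO library, if that length was the one used. Kcnq1 itself stood at 8.04, 9.53 and 10.4 FPKM in WT and at 6.91, 7.67 and 7.64 FPKM in KO replicates 1 to 3, likewise without overlap (log2 difference -0.29 ± 0.15, limma adjusted p = 0.690; -0.18 without WT replicate 3). The ratio of Kcnq1ot1 to Kcnq1 was 0.00507 ± 0.000109 in WT and 0.00420 ± 0.000892 in KO libraries and overlapped (n = 3 each, exact permutation p = 0.4). Reads of Kcnq1ot1 and of Kcnq1 introns lie on the same bases, and the sources used here do not say whether strand was used.

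Among 7 tested genes of the Kcnq1 domain, 0 were called by limma and 0 had an unadjusted p under 0.05 (median log2 difference -0.097). Cdkn1c, a cell cycle inhibitor gene silenced on the copy that makes Kcnq1ot1, stood at 7.35 ± 1.44 FPKM in WT hearts and 9.37 ± 2.11 FPKM in KO hearts (log2 difference 0.34 ± 0.21, n = 3 each, limma adjusted p = 0.757). It was at 0.19 without WT replicate 2 or KO replicate 1 and at 0.51 without KO replicate 3. Tssc4 differed by -0.33 ± 0.17 (limma adjusted p = 0.680; -0.21 without KO replicate 3). Of 18 tested imprinted genes elsewhere in the genome, 0 were called by limma and 1 had an unadjusted p under 0.05, with a median of 0.10, 12 higher and 6 lower. Asb4 stood at 1.22 ± 0.248 FPKM in WT hearts and 0.639 ± 0.106 FPKM in KO hearts without overlap (log2 difference -0.58 ± 0.20, n = 3 each, limma adjusted p = 0.465). Mest, known also as Peg1, differed by 0.44 ± 0.22 and Ndn by 0.32 ± 0.22 (limma adjusted p = 0.674 and 0.789). Mest was at 0.20 without KO replicate 2 and 0.66 without KO replicate 3, and Ndn at 0.13 without WT replicate 3, 0.49 without KO replicate 1 and 0.19 without KO replicate 2. Mest was highest in KO replicate 2, at 19.7 FPKM, the heart that was also highest in Meg3 and Rian. H19 and Igf2 were lowest in that heart, and its sum of fibroblast markers was the highest.

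Miat was listed at 0 in 5 libraries and at 0.0157 FPKM in KO replicate 3, a value worth about 1 fragment on its longest transcript of 9163 bases. No statement on genotype can be made from it.

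The genes whose pattern over the 6 libraries was most like that of each tested RNA are given as a description, with Pearson's r on the log2 scale. With 6 libraries and 14656 genes high values of r are common, and between 53 and 312 tested genes had an r above 0.9 with each RNA. For Snhg1 they were Cemip2 and Fam107a (r = 0.994 and 0.994), whose own log2 differences (KO minus WT) were 0.49 and 2.05. For Neat1 they were Mrps5 and C5ar2 (0.994 and 0.991), for Malat1 Pm20d1 and Erg28 (0.992 and 0.990), and for Gas5 Cracr2b and Zrsr1 (0.986 and 0.983). For Meg3 they were Mustn1 and Zc2hc1a (0.989 and 0.988), for Rian Lpp and Ankib1 (0.990 and 0.988), and for H19 Ttc3 and Gtf2b (0.985 and 0.982). Among the 21 pairs of the 7 RNAs themselves, the r farthest from 0 were those of Meg3 with Gas5 (0.816) and of Neat1 with Rian (-0.720).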

How the data were processed

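The deposited table, although titled as counts, holds FPKM made by the authors (37.2% to 40.4% of values per library are not whole). Bowtie 0.12.2 and the builds mm8 and mm9 are named, with no role for each, per the submitters' processing notes. Which quantifier, annotation and strand setting they used is not given in the sources used here. Rows were matched by Ensembl identifier to GENCODE M21 (GRCm38), which held 52403 of 52550. Of the 10 members, 6 had the same version there and 4 (Neat1, Malat1, H19, Kcnq1ot1) another one, so their models may differ. Coordinates are those of GRCm38, and none was converted. Libraries were made with an Illumina TruSeq RNA kit from total RNA, per the labels' protocols.

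Depth was estimated in genes with 1 transcript, from the commonest value of FPKM multiplied by length. Genes with at least 0.5 FPKM in 3 or more libraries (14656) entered limma 3.58.1 (R 4.3.3) as log2(FPKM / factor + 0.5) (genotype only, trend, two-sided, Benjamini-Hochberg over all tested genes, threshold 0.05). Factors were trimmed means of log2 ratios (trims 0.3 and 0.05) and lay between 0.949 and 1.07. The procedure was tested on simulated data. Ratios were compared by exact permutation. The labels do not say that hearts came from separate litters or sessions, so the spread behind each p-value is that between these 6 samples and may be technical. In KO that spread also includes any difference that goes with the sex of KO replicate 3. Alternatives were other scalings, pseudocounts, filters and variance settings, a replicate block, and each library left out.

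The members and the 9 gene lists were chosen with earlier results of these data known. Genes named from a list are the 3 of smallest p, of which 1 is not reported here. For likeness, the 2 genes of highest r with a name of their own are given.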

Additional observations from a re-analysis of the deposited data

How the results depend on the processing

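No member was called in any of the 17 alternatives, and the lowest limma adjusted p of a member in any of them was 0.177 (Snhg1, without the mean-variance trend). Of 119 refits of the 7 tested members, 112 kept their direction. The 7 that turned were all fits without 1 library, in 5 members with differences between -0.20 (H19) and 0.14 (Meg3). Over these fits the log2 difference ran from -0.26 to 0.20 for Neat1, from -0.28 to 0.09 for Malat1, from -0.01 to 0.34 for Meg3, from -0.05 to 0.24 for Gas5, from -0.40 to 0.03 for H19 and from 0.19 to 0.56 for Rian. The turns occurred without WT replicate 2 (Neat1 0.076, Meg3 -0.013), WT replicate 3 (Neat1 0.132, Malat1 0.088), KO replicate 1 (Gas5 -0.054) and KO replicate 2 (Neat1 0.198, H19 0.033). Of 423 refits of the 25 genes named from the lists, 1 turned (Wdr25, -0.00098 without KO replicate 3, with a range over the fits without 1 library from there to 0.395). The count of called genes over the whole table, 55, was 20 with no filter on low values, where more rows are tested, and ran from 12 to 36 without 1 library. Deviations of same-numbered WT and KO libraries correlated at 0.008, -0.036 and 0.180, so the numbers were not taken as pairs. With the replicate block the count was 42 and members called stayed at 0. Snhg1 then had a limma adjusted p of 0.396. Levels under 0.5 FPKM were not tested by limma.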

Other observations

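Among 11 tested long noncoding RNAs of a wider list of known names, 0 were called by limma and 0 had an unadjusted p under 0.05 (median log2 difference 0.023, 6 higher and 5 lower in KO). Mhrt, a heart-specific RNA antisense to the myosin gene Myh7, was far above the 10 RNAs of the report, at 191.4, 181.3 and 217.7 FPKM in WT hearts and 182.9, 137.1 and 206.4 FPKM in KO replicates 1 to 3 (log2 difference -0.17 ± 0.22, limma adjusted p = 0.887). Its naming followed a look at its values, and its reads cannot be told from those of Myh7 where the genes overlap. Mir99ahg, a host of microRNAs, stood at 0.839, 0.954 and 0.996 FPKM in WT and at 1.59, 1.09 and 1.56 FPKM in KO replicates 1 to 3. All KO values were above all WT values (log2 difference 0.42 ± 0.20, limma adjusted p = 0.640). It was the 1 of the 11 whose genotypes were apart, beside 12.8% of all tested genes. Hand2os1, next to the cardiac transcription factor gene Hand2, differed by 0.44 ± 0.21 and Dnm3os, a host of microRNAs, by -0.38 ± 0.25 (limma adjusted p = 0.660 and 0.764), both with overlapping genotypes. Hand2os1 was at 0.26 without WT replicate 1, and Dnm3os at -0.24 without WT replicate 3 and -0.16 without KO replicate 3.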
